A study of Macaca fascicularis with 4 samples.

Results

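Liver and skeletal muscle of the cynomolgus monkey (Macaca fascicularis) were compared through 2 of the 4 libraries of a full-length RNA sequencing series, 1 library for liver and 1 for muscle. The labels give the second tissue as muscle without a body site. Its library held the filament genes of skeletal fibres described below. Each library was made from RNA of 5 monkeys pooled before preparation and was read on the PacBio Sequel II platform, on which 1 read covers a whole cDNA molecule. The labels give no genotype, treatment, age or sex for either pool. The comparison covers 12778 genes with at least 1 count in either library, of 13982 genes in the whole series. With 1 library per tissue there are no replicates and no p-values, and every interval covers counting error alone, not the spread between animals.

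The liver makes most proteins of blood plasma, stores glycogen to supply glucose to other organs, makes glucose, urea, bile acids and ketone bodies, and clears drugs. Skeletal muscle is built of sarcomeres, in which thick myosin filaments slide along thin actin filaments when calcium is released from internal stores. It burns glucose, its own glycogen, fatty acids and ketone bodies for contraction. Many steps that the tissues share are run by different genes of the same family in each, called isozymes where the product is an enzyme.

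Counts assigned to genes totalled 437587 in liver and 439872 in muscle. Levels are given per 1000000 counts of the library (CPM). A count of 3, or 6.86 CPM in liver and 6.82 CPM in muscle, was used as the floor for a gene with 0 counts. A fold given as "at least" is the ratio to that floor. For other genes the ratio of CPM values is given, with the exact 95% interval in parentheses. A gene was called higher in a tissue where it had at least 10 counts there and the lower bound of its fold was above 2. Transcript length was not used, so counts are compared between tissues for 1 gene at a time. In tissue RNA, fewer cells of a type and less RNA per cell cannot be told apart. Some genes of the lists below, such as the glycolytic ALDOA, PKM and LDHA, had no entry for either library and were not analysed here. A gene without an entry in 1 library was counted as 0 there. Why a gene has no entry is not stated, so each "at least" fold rests on taking the missing entry as a count of 0. Counts of members refer to those measured, with at least 10 counts over the pair.

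Of 6997 genes with at least 10 counts in either library, 873 were called higher in liver and 1338 higher in muscle, or 12.5% and 19.1%. When libraries were scaled with TMM factors (trimmed means of M-values), the same rule called 1077 and 935 genes, or 15.4% and 13.4%, and with DESeq2 size factors 1054 and 953. The side with more calls therefore depended on the scaling. Liver genes made up 39.5% of all calls with library totals, 53.5% with TMM and 52.5% with DESeq2. All 873 liver calls were also made with TMM and with DESeq2, while 935 and 953 of the 1338 muscle calls were. The median log2 ratio of liver to muscle over 7967 measured genes was -0.50, and a median below 0 means more muscle than liver counts. TMM raised every log2 ratio by 0.44 and DESeq2 by 0.41, so that a muscle fold is divided by 1.36 or 1.33.

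**Figure D1:**
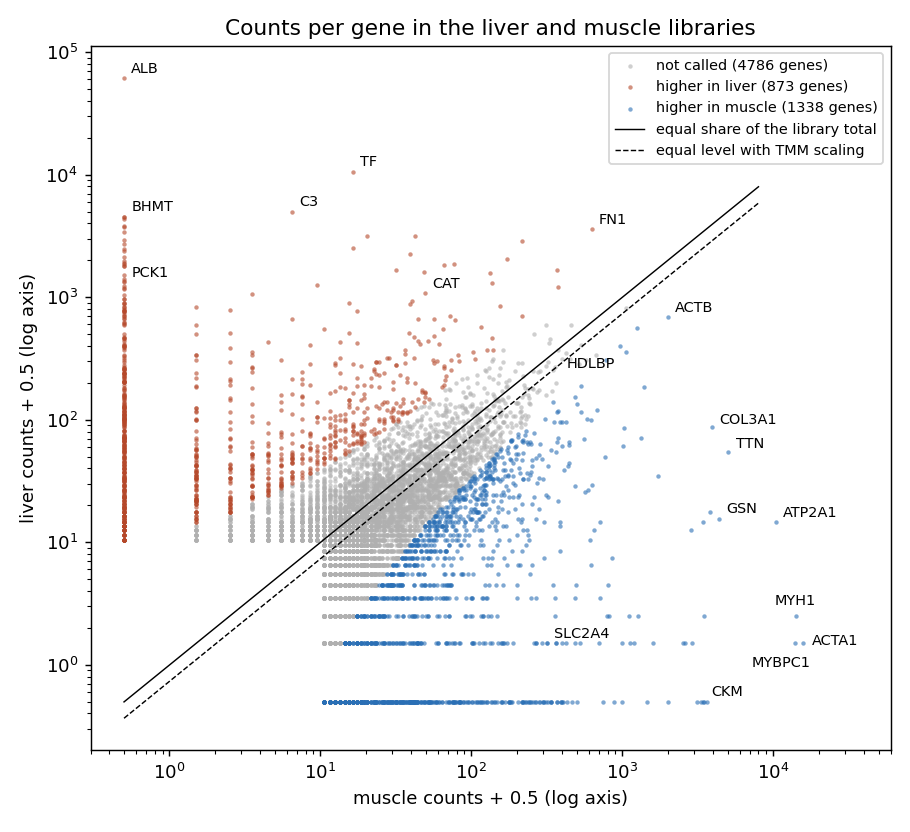
Counts per gene in muscle (horizontal) and liver (vertical) after adding 0.5, on log axes, for the 6997 genes with at least 10 counts in either library. Red points are the 873 genes called higher in liver and blue points the 1338 called higher in muscle, and the 2 lines mark equal levels with library totals and with TMM.

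The libraries differed in a large part of the counts assigned to genes. The 873 liver genes held 63.7% of these counts in liver and 2.27% in muscle, and the 1338 muscle genes held 58.1% in muscle and 3.82% in liver. The calling rule was applied to these same counts, so it sets the direction of these differences and a size of more than 2-fold. These shares are therefore descriptions. Of the liver genes, 349 had 0 counts in muscle, and of the muscle genes 400 had 0 in liver. The median fold, with zeros at the floor, was 11.7 for liver genes and 7.82 for muscle genes. The lower bound was above 10 for 305 liver genes and 283 muscle genes, above 100 for 68 and 38, and above 1000 for 6 and 3. Liver counts were the more concentrated, with 129 genes making up the first 50% of them against 338 genes in muscle. Among the called genes, 60 in liver and 56 in muscle carry an identifier in place of a symbol and are not named.

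**Figure D2:**
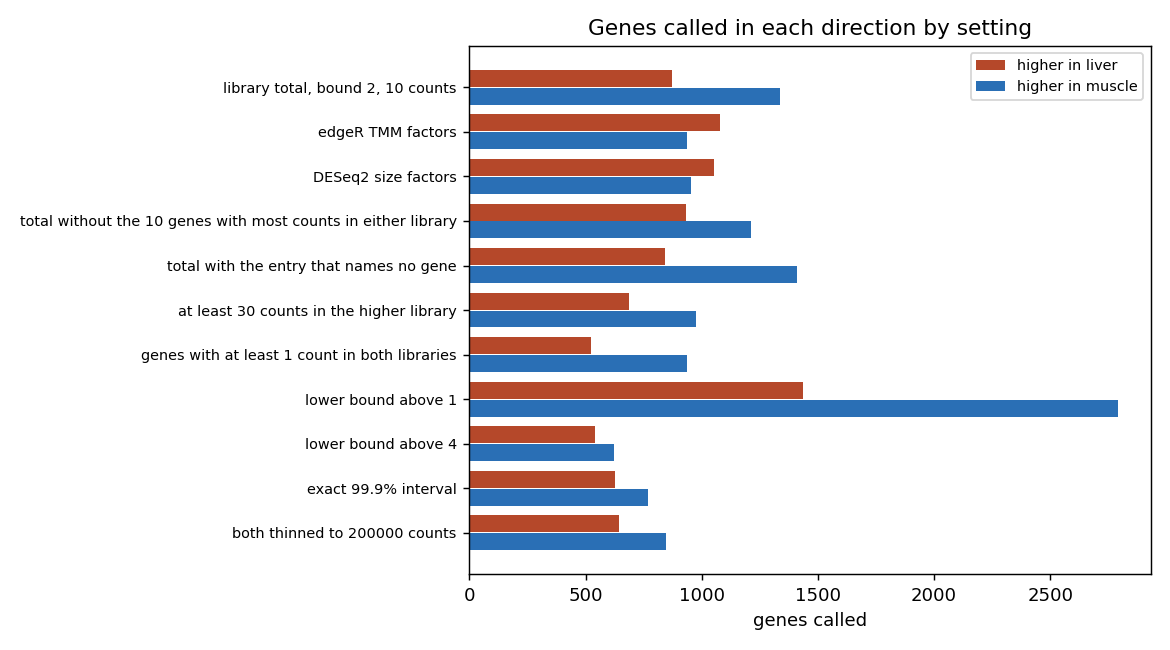
Genes called higher in liver (red) and in muscle (blue) under each setting, as bars from 0. Muscle has more calls with library totals (1338 against 873) and fewer with TMM (935 against 1077) and DESeq2 (953 against 1054).

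Proteins secreted into blood were among the largest differences on the liver side. Plasma carriers, which move hormones, metals and lipids in blood, were higher in liver for 20 of 20 measured members, where 10.96% of all 7967 measured genes were called higher in liver. ALB, serum albumin, had 61515 counts in liver and 0 in muscle, at least 20612-fold higher in liver. TF, the iron carrier transferrin, had 10586 counts in liver and 16 in muscle and was 665-fold (409 to 1164) higher. The list summed to 199873 CPM in liver and 81.8 CPM in muscle. Coagulation and fibrinolysis followed with 21 of 21, and serpins and other protease inhibitors of plasma with 12 of 12. PLG, the precursor of the clot-dissolving enzyme plasmin, had 4495 counts in liver and 0 in muscle (at least 1506-fold). The fibrinogen chain FGA, a building block of clots, had 4309 counts in liver and 0 in muscle (at least 1444-fold). SERPINC1, antithrombin, had 895 counts in liver and 0 in muscle (at least 299.9-fold). Not every inhibitor was close to 0 in muscle. A2M, a broad protease trap, had 1661 counts in liver and 371 in muscle, 4.50-fold (4.02 to 5.05) higher in liver, and SERPING1, the inhibitor of complement C1, had 573 counts in liver and 115 in muscle, 5.01-fold (4.09 to 6.17).

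Complement had 12 of 13 members higher in liver. C3, the central component, had 4997 counts in liver and 6 in muscle (837-fold, 384 to 2282). C7, a part of the membrane attack complex, was the exception with 169 counts in liver and 87 in muscle, a ratio of 1.95 (1.499 to 2.56), called with TMM but not with library totals or DESeq2. Lipoprotein genes had 13 of 14. APOB, the scaffold of very-low-density lipoprotein, had 2934 counts in liver and 0 in muscle (at least 983-fold). MTTP, which loads lipid onto APOB, had 213 counts in liver and 2 in muscle (107-fold, 29.3 to 889.7). Against muscle alone, APOE, a ligand for lipoprotein uptake, was also called, with 428 counts in liver and 13 in muscle (33.1-fold, 19.1 to 62.7).

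Enzymes of nitrogen disposal were almost all higher in liver. In the urea cycle and glutamine list 9 of 10 members were, and in amino acid breakdown 27 of 29. CPS1, which feeds ammonia into the urea cycle, had 1877 counts in liver and 0 in muscle (at least 629-fold). ARG1, arginase, had 471 counts in liver and 0 in muscle (at least 158-fold). GLUL, which makes glutamine and works in muscle as well, was not called, with 283 counts in liver and 519 in muscle, a ratio of muscle to liver of 1.82 (1.58 to 2.12). GOT1, an aspartate aminotransferase, was likewise not called, with 67 counts in liver and 147 in muscle. The methionine cycle had 11 of 12 members higher in liver, led by BHMT, which remethylates homocysteine from betaine, with 4534 counts in liver and 0 in muscle (at least 1519-fold).

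Breakdown of branched-chain amino acids was less uniform. This pathway starts with a transamination that occurs largely outside the liver. Of 16 measured members 8 were higher in liver and 2 in muscle. BCAT2, the mitochondrial aminotransferase of the first step, had 0 counts in liver and 11 in muscle (higher in muscle, at least 3.65-fold). DLD, a subunit shared by several dehydrogenase complexes, had 53 counts in liver and 176 in muscle (3.30-fold, 2.42 to 4.58). Neither muscle call remained with TMM or DESeq2. The liver members act after the transamination, such as ACADSB, the short branched-chain acyl-CoA dehydrogenase, with 1859 counts in liver and 76 in muscle (24.6-fold, 19.5 to 31.4), and PCCA, a propionyl-CoA carboxylase chain, with 296 counts in liver and 23 in muscle (12.9-fold, 8.46 to 20.7).

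Genes of drug and bile metabolism were higher in liver with few exceptions. All 22 measured cytochrome P450 and reductase genes were higher there, as were 17 of 19 conjugating and oxidising enzymes and 16 of 19 genes that make or carry bile acids. CYP2E1, which oxidises ethanol and small solvents, had 3815 counts in liver and 0 in muscle (at least 1278-fold). ABCG8, a subunit of the sterol exporter into bile, had 228 counts in liver and 0 in muscle (at least 76.4-fold). The bile uptake carrier SLCO1B1 had 1251 counts in liver and 9 in muscle (139.7-fold, 73.4 to 306). Members called higher in muscle were GSTP1, a glutathione transferase with 0 counts in liver and 11 in muscle, and the carrier SLCO2B1 with 13 counts in liver and 56 in muscle (4.29-fold, 2.31 to 8.54), and both calls were lost with TMM. P450, UGT and glutathione transferase genes have near-identical copies, and the counting of reads shared by copies is not stated in the labels.

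Genes of the contractile apparatus were higher in muscle. All 18 measured thick filament genes were higher in muscle, where 16.79% of all 7967 measured genes were, together with 13 of 14 thin filament genes and 30 of 31 genes of the Z-disc and sarcomere assembly. ACTA1, skeletal actin, had 1 count in liver and 15827 in muscle (15745-fold, 2825 to 621925). MYBPC1, a myosin-binding protein, had 1 count in liver and 13941 in muscle (13869-fold, 2489 to 547818). NEB, the giant ruler of the thin filament, had 0 counts in liver and 3441 in muscle (at least 1141-fold). The thick filament list summed to 92641 CPM in muscle and 149 CPM in liver. Most of the liver sum was TTN, the elastic filament titin, which had 54 counts in liver and 5053 in muscle (93.1-fold, 71.2 to 124). The members not called were TNNI2, the fast troponin I, with 2 counts in liver and 16 in muscle (7.96-fold, 1.87 to 71.3), and PDLIM5, a Z-disc adaptor that other tissues also use, with 62 counts in liver and 83 in muscle (1.33-fold, 0.947 to 1.88).

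Fast and slow fibre forms were both present in muscle and near 0 in liver. MYH1, a fast myosin heavy chain, had 2 counts in liver and 14196 in muscle (7061-fold, 1954 to 58312), and MYH7, the slow one, had 0 counts in liver and 1467 in muscle (at least 486-fold). The developmental chains MYH3 and MYH8 had 37 and 96 muscle counts and 0 in liver. Myosin heavy chains are near-identical in long stretches, so the split among them is uncertain. TNNT3, fast troponin T, had 0 counts in liver and 287 in muscle (at least 95.2-fold), and TNNT1, the slow form, had 0 counts in liver and 30 in muscle (at least 9.95-fold).

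Excitation and calcium handling were higher in muscle for 19 of 19 members, and junction and channel genes in 10 of 10. CACNA1S, the voltage sensor of the muscle membrane, had 0 counts in liver and 501 in muscle (at least 166-fold). RYR1, the channel it opens in the calcium store, had 0 counts in liver and 126 in muscle (at least 41.8-fold). CASQ1, the calcium buffer inside the store, had 0 counts in liver and 750 in muscle (at least 249-fold), and ATP2A1, the pump that refills it, had 14 counts in liver and 10380 in muscle (738-fold, 439 to 1349.6). CHRNB1, a subunit of the acetylcholine receptor at the nerve contact, had 0 counts in liver and 178 in muscle (at least 59.0-fold).

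The membrane and dystrophin list was less uniform, with 15 of 19 members higher in muscle. DES, the filament desmin that ties myofibrils together, had 0 counts in liver and 3339 in muscle (at least 1107-fold). SGCA, a sarcoglycan, had 0 counts in liver and 58 in muscle (at least 19.2-fold). DMD itself, the gene of dystrophin, was not called, with 75 counts in liver and 109 in muscle, a ratio of 1.45 (1.07 to 1.97). Its relative UTRN, utrophin, was close to it in ratio, with 73 counts in liver and 104 in muscle (1.42-fold, 1.04 to 1.94). DMD has several promoters that give shorter transcripts outside muscle, and gene counts do not separate them.

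The list of muscle ubiquitin ligases and proteases had 20 of 21 members higher in muscle. ASB2, a substrate adaptor of a ubiquitin ligase, had 0 counts in liver and 991 in muscle (at least 329-fold). The atrophy-linked ligase genes FBXO32 and TRIM63 had 267 and 48 counts in muscle and 1 and 0 in liver. Small heat shock proteins and immediate early genes had 9 of 13 higher in muscle and 0 in liver. HSPB7 had 0 counts in liver and 408 in muscle (at least 135-fold), and BAG3, a co-chaperone of this class, had 10 counts in liver and 242 in muscle (24.1-fold, 12.9 to 50.8). NR4A1, an early-response nuclear receptor, had 1 count in liver and 122 in muscle (121-fold, 21.4 to 4833), and FOS, which responds within minutes to many stimuli, had 4 counts in liver and 163 in muscle (40.5-fold, 15.5 to 151).

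**Figure D3:**
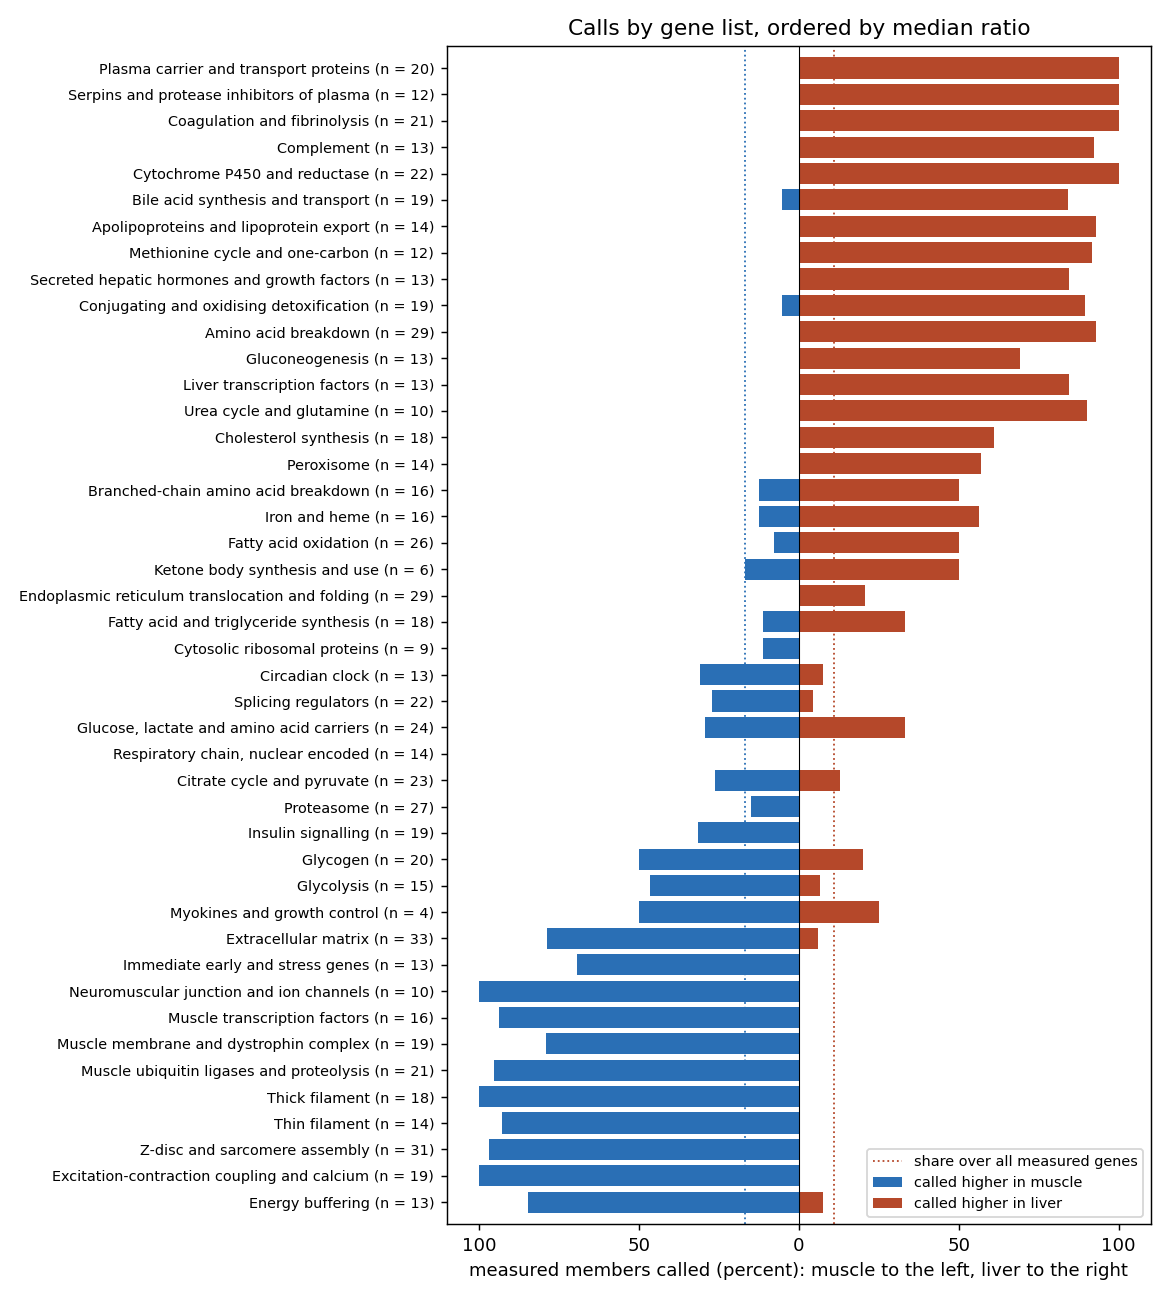
Share of measured members called higher in muscle (bars to the left, percent) and in liver (bars to the right) for each pathway list, ordered by median log2 ratio, with the number measured. The dotted lines mark 16.79% and 10.96%, the shares over all 7967 measured genes.

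Transcription factors of each tissue followed the same division. Of 13 measured liver factors 11 were higher in liver and 0 in muscle. HNF4A, a master regulator of hepatocytes, had 96 counts in liver and 0 in muscle (at least 32.2-fold). The xenobiotic sensor NR1I2 had 126 counts in liver and 0 in muscle (at least 42.2-fold) and the bile acid receptor NR1H4 had 99 counts in liver and 0 in muscle (at least 33.2-fold). Of 16 measured muscle factors 15 were higher in muscle, or 12 with TMM. MYOD1, which can impose the muscle fate, had 0 counts in liver and 84 in muscle (at least 27.9-fold), and MEF2C, its partner, had 5 counts in liver and 150 in muscle (29.8-fold, 12.5 to 93.3). PPARGC1A, the remaining member and a coactivator of mitochondrial genes and of gluconeogenesis, lay on the liver side with 45 counts in liver and 12 in muscle, a ratio of 3.77 (1.96 to 7.83), and was called there with TMM and DESeq2. Of 22 splicing regulators 1 was higher in liver and 6 in muscle, or 2 and 3 with TMM. ESRP2, an epithelial splicing factor, had 98 counts in liver and 0 in muscle (higher in liver, at least 32.8-fold). RBM24, a muscle splicing factor, had 0 counts in liver and 142 in muscle (higher in muscle, at least 47.1-fold). The median of that list was -0.30 and turned to 0.14 with TMM and 0.10 with DESeq2.

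Gene pairs with the same or a matching role were compared to see where the tissues differed in the family member. Of 60 pairs, 44 had both members measured, and in 13 of these the first was called higher in liver and the second in muscle. The number was 18 with TMM and 18 with DESeq2. In 24 pairs 1 member was called and in 4 neither was. Of those 24 the muscle member was higher in muscle in 20 and the liver member higher in liver in 3. In the acetyl-CoA carboxylase pair the muscle member ACACB was higher in liver instead, with 139 counts in liver and 40 in muscle (3.49-fold, 2.44 to 5.10), while ACACA was not called. With TMM or DESeq2 PDK4, another muscle member, was called in liver too. In 3 pairs both members were higher in muscle, and in 0 pairs were the members called the opposite way round. The pairs were written down with earlier results of these data known, so their count describes the list and is not evidence of a general rule.

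Glycogen metabolism was divided at the synthase, the phosphorylase and the phosphorylase kinase. Glycogen synthase was GYS2 in liver, with 204 counts in liver and 0 in muscle (at least 68.4-fold), and GYS1 in muscle, with 13 counts in liver and 389 in muscle (29.8-fold, 17.2 to 56.4). Glycogen phosphorylase, which releases glucose units, was PYGL in liver, with 284 counts in liver and 8 in muscle (35.7-fold, 17.9 to 83.5), and PYGM in muscle, with 1 count in liver and 2612 in muscle (2598-fold, 466 to 102671). Its activating kinase had PHKA2 in liver, with 47 counts in liver and 7 in muscle (6.75-fold, 3.03 to 17.7), and PHKA1 in muscle, with 4 counts in liver and 493 in muscle (123-fold, 47.6 to 452). The catalytic chain PHKG1 had 0 counts in liver and 320 in muscle (at least 106-fold), whereas PHKG2 was not called, with 14 counts in liver and 6 in muscle. Steps without a tissue form lay close together. GBE1, the branching enzyme, had 142 counts in liver and 124 in muscle, a ratio of liver to muscle of 1.15 (0.898 to 1.48), and PPP1R3C, a glycogen-targeting subunit, had 101 counts in liver and 109 in muscle. In all, 4 of 20 measured glycogen genes were higher in liver and 10 in muscle, or 8 with TMM.

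Glucose entry and the ends of glycolysis differed in the same manner. SLC2A2, the low-affinity carrier GLUT2, had 255 counts in liver and 0 in muscle (higher in liver, at least 85.4-fold), and SLC2A4, the insulin-responsive GLUT4, had 1 count in liver and 317 in muscle (higher in muscle, 315-fold, 56.2 to 12495). HK2, an insulin-responsive hexokinase, had 3 counts in liver and 16 in muscle and was not called. HK1, a hexokinase of many tissues, had 6 counts in liver and 252 in muscle (higher in muscle, 41.8-fold, 18.9 to 115). PFKM had 1 count in liver and 2532 in muscle (2519-fold, 452 to 99528), and the liver form PFKL had 75 counts in liver and 58 in muscle, a ratio of 1.30 (0.91 to 1.86), and was not called. ENO3, muscle enolase, had 1 count in liver and 1592 in muscle (1584-fold, 284 to 62593), and ENO1 had 128 counts in liver and 83 in muscle (1.55-fold, 1.17 to 2.07). Among glycolysis genes 7 of 15 were higher in muscle, and PKLR, liver pyruvate kinase with 130 counts in liver and 0 in muscle, was the 1 higher in liver. Monocarboxylate carriers had a similar pattern, with SLC16A3, a lactate exporter, at 9 counts in liver and 84 in muscle (9.28-fold, 4.66 to 21.0) and SLC16A1 at 112 counts in liver and 78 in muscle, not called.

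Gluconeogenesis had 9 of 13 members higher in liver and 0 in muscle. PCK1, which commits carbon to glucose synthesis, had 1325 counts in liver and 0 in muscle (at least 444-fold), and G6PC, which releases free glucose, had 265 counts in liver and 0 in muscle (at least 88.8-fold). Fructose bisphosphatase was divided between FBP1 in liver, with 268 counts in liver and 0 in muscle (at least 89.8-fold), and FBP2 in muscle, with 1 count in liver and 78 in muscle (77.6-fold, 13.5 to 3104). GPD1, which links glycolysis to glycerol, had 338 counts in liver and 667 in muscle and was not called.

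**Figure D4:**
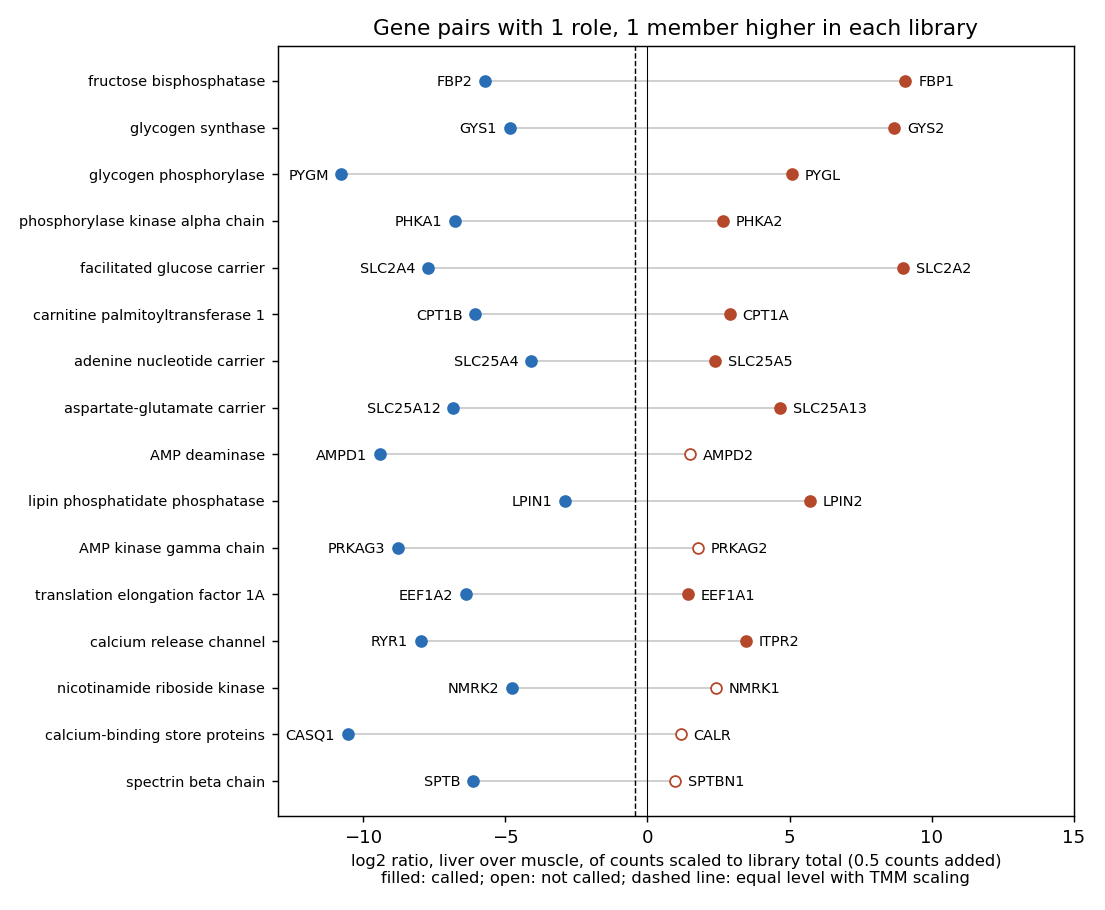
Log2 ratio of liver to muscle counts, scaled to library totals after adding 0.5, for 16 of the 18 gene pairs in which 1 member was called higher in liver and the other in muscle with library totals or with TMM. Red is the liver member, blue the muscle member, and open circles were called with TMM but not with library totals, where 13 pairs met the rule.

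Fatty acid oxidation was higher in liver for 13 of 26 members and in muscle for 2, with 17 and 2 under TMM. ACSL1, which activates fatty acids, had 2895 counts in liver and 217 in muscle (13.4-fold, 11.7 to 15.5). EHHADH, an enzyme of peroxisomal oxidation, had 506 counts in liver and 15 in muscle (33.9-fold, 20.4 to 61.0). The gate of the mitochondrial pathway was divided, with CPT1A at 99 counts in liver and 13 in muscle (7.66-fold, 4.28 to 14.9) and CPT1B at 0 counts in liver and 33 in muscle (at least 10.9-fold). UCP3, a mitochondrial carrier of muscle, had 0 counts in liver and 220 in muscle (at least 73.0-fold). Within the mitochondrial cycle, ACAA2, the last thiolase, had 411 counts in liver and 45 in muscle (higher in liver, 9.18-fold, 6.74 to 12.8). ACADM and HADH, of the medium-chain dehydrogenase and a later step, were also higher in liver, with 165 and 101 liver counts against 49 and 32 in muscle. HADHA, a chain of the trifunctional protein, was not called, with 266 counts in liver and 154 in muscle, a ratio of 1.74 (1.42 to 2.13). ACADVL, the very-long-chain dehydrogenase, had 368 counts in liver and 162 in muscle (2.28-fold, 1.89 to 2.76) and was called with TMM and DESeq2 alone. Peroxisomal genes as a list had 8 of 14 higher in liver, among them CAT, catalase, with 1079 counts in liver and 49 in muscle (22.1-fold, 16.6 to 30.1).

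Ketone bodies are made in liver and used elsewhere. Of 6 measured genes of ketone synthesis and use 3 were higher in liver and 1 in muscle. BDH1, which interconverts the main ketone bodies, had 48 counts in liver and 10 in muscle (higher in liver, 4.83-fold, 2.41 to 10.7). OXCT1, the enzyme that starts their use, had 1 count in liver and 102 in muscle (higher in muscle, 101-fold, 17.8 to 4047). Lipid synthesis was more even. Of 18 genes of fatty acid and triglyceride synthesis 6 were higher in liver and 2 in muscle. FASN, fatty acid synthase, had 224 counts in liver and 130 in muscle, a ratio of 1.73 (1.39 to 2.17), and was not called. SCD, a desaturase, was called higher in muscle with 560 counts in liver and 1248 in muscle (2.22-fold, 2.01 to 2.45), a difference not called with TMM or DESeq2, and it had 3804 counts in oWAT and 6645 in sWAT, the 2 adipose libraries of the series. Phosphatidate phosphatase was divided between LPIN2 in liver, with 182 counts in liver and 3 in muscle (61.0-fold, 20.5 to 298), and LPIN1 in muscle, with 9 counts in liver and 71 in muscle (7.85-fold, 3.91 to 17.9). Cholesterol synthesis had 11 of 18 members higher in liver and 0 in muscle, among them INSIG1, a sterol-sensing brake on the pathway, with 372 counts in liver and 36 in muscle (10.4-fold, 7.37 to 15.1).

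Called citrate cycle genes lay on both sides, in places within 1 step. Of 23 measured genes 3 were higher in liver, 6 in muscle and 14 were not called. With TMM 4 were higher in liver and 4 in muscle. Over all 7967 measured genes 10.96% were higher in liver and 16.79% in muscle with library totals. The cytosolic forms IDH1 and ACO1 were higher in liver, with 287 counts in liver and 36 in muscle (8.01-fold, 5.65 to 11.7) and 411 counts in liver and 61 in muscle (6.77-fold, 5.17 to 9.02). The mitochondrial IDH2 was higher in muscle, with 23 counts in liver and 205 in muscle (8.87-fold, 5.75 to 14.3), as was CS, citrate synthase, with 25 counts in liver and 161 in muscle (6.41-fold, 4.19 to 10.2). Succinyl-CoA ligase has an ATP-forming chain, SUCLA2, with 14 counts in liver and 148 in muscle (higher in muscle, 10.52-fold, 6.07 to 19.7), and a GTP-forming chain, SUCLG2, with 220 counts in liver and 37 in muscle (higher in liver, 5.98-fold, 4.20 to 8.71). PDP1, the phosphatase that switches pyruvate dehydrogenase on, had 1 count in liver and 260 in muscle (higher in muscle, 259-fold, 46.02 to 10255). PDK4, a kinase that switches it off, had 220 counts in liver and 93 in muscle (2.38-fold, 1.86 to 3.06) and was called higher in liver with TMM and DESeq2 but not with library totals.

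Mitochondrial carriers were divided as well. SLC25A12 and SLC25A13 exchange aspartate for glutamate, and had 1 count in liver and 171 in muscle (higher in muscle, 170.1-fold, 30.1 to 6758) and 138 counts in liver and 5 in muscle (higher in liver, 27.7-fold, 11.6 to 86.8). The ATP exporter SLC25A4 had 28 counts in liver and 484 in muscle (higher in muscle, 17.2-fold, 11.7 to 26.2), and SLC25A5 had 33 counts in liver and 6 in muscle (higher in liver, 5.53-fold, 2.29 to 16.1). Nuclear genes of the respiratory chain, in contrast, had 0 of 14 measured members called in either direction with library totals or with TMM. Their median log2 ratio was -0.59, beside -0.50 over all genes. ATP5F1A, a chain of ATP synthase, had 304 counts in liver and 574 in muscle, a ratio of muscle to liver of 1.88 (1.63 to 2.17), and UQCRC1, of complex III, had 49 counts in liver and 129 in muscle (2.62-fold, 1.87 to 3.72). The list has 38 members, so 24 were not measured.

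Energy buffering was 1 of the lists with the largest muscle ratios, with 11 of 13 higher in muscle and a median log2 ratio of -8.20, or -5.61 with zeros at the floor. CKM, muscle creatine kinase, had 0 counts in liver and 3472 in muscle (at least 1151-fold), and CA3, a carbonic anhydrase, had 0 counts in liver and 3634 in muscle (at least 1205-fold). Creatine is made largely outside muscle, and GATM, the first enzyme of its synthesis, was higher in liver with 1302 counts in liver and 136 in muscle (9.62-fold, 8.06 to 11.6). AMPD1, AMP deaminase of muscle, had 0 counts in liver and 338 in muscle (at least 112-fold). MB, the oxygen store myoglobin, had 0 counts in liver and 147 in muscle (at least 48.7-fold).

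Further pairs had a housekeeping form and a muscle form. The elongation factor EEF1A1 had 367 counts in liver and 138 in muscle (higher in liver, 2.67-fold, 2.19 to 3.28) and EEF1A2 had 0 counts in liver and 41 in muscle (higher in muscle, at least 13.6-fold). RPL3L, a muscle form of a ribosomal protein, had 0 counts in liver and 35 in muscle (at least 11.6-fold), and RPL3 had 57 counts in liver and 33 in muscle and was not called. Calcium release was represented by ITPR2, with 105 counts in liver and 9 in muscle (higher in liver, 11.7-fold, 5.95 to 26.4), against RYR1 in muscle. In the calcium pumps and calpains both members were higher in muscle: ATP2A2 had 18 counts in liver and 193 in muscle (10.7-fold, 6.57 to 18.4) and CAPN2 had 35 counts in liver and 246 in muscle (6.99-fold, 4.89 to 10.3). In the actin pair ACTB was also called higher in muscle, with 684 counts in liver and 2007 in muscle (2.92-fold, 2.67 to 3.19), a call lost with TMM.

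Insulin signalling genes are used by both tissues, and 6 of 19 measured members were higher in muscle and 0 in liver. The muscle calls numbered 4 with TMM and 4 with DESeq2, and 16.79% of all measured genes were higher in muscle with library totals. Besides SLC2A4, the members higher in muscle included TBC1D1, a brake on the movement of that carrier, with 13 counts in liver and 107 in muscle (8.19-fold, 4.59 to 15.9). AKT2, the central kinase of the pathway, had 111 counts in liver and 147 in muscle, a ratio of 1.32 (1.02 to 1.70), and INSR, the receptor, had 17 counts in liver and 10 in muscle. Neither was called. Clock genes had HLF, an output factor, higher in liver with 135 counts in liver and 3 in muscle (45.2-fold, 15.2 to 222). CRY2, a repressor of the clock, was higher in muscle with 101 counts in liver and 306 in muscle (3.01-fold, 2.40 to 3.81). Of the 4 clock genes called higher in muscle 0 remained with TMM.

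Genes of protein export and of protein breakdown had median log2 ratios of 0.90 and -0.96, on either side of the -0.50 over all genes. Of 29 genes of endoplasmic reticulum translocation and folding 6 were higher in liver, 13 with TMM, and 0 in muscle. PDIA4, a disulfide isomerase, had 437 counts in liver and 44 in muscle (9.98-fold, 7.31 to 13.9). LMAN1, a cargo receptor that carries clotting factors, had 92 counts in liver and 11 in muscle (8.41-fold, 4.49 to 17.4). HSPA5, a major chaperone there, had 595 counts in liver and 310 in muscle (1.93-fold, 1.68 to 2.22) and was called with TMM. Proteasome genes had 4 of 27 higher in muscle, a share near that of all genes, and 1 with TMM. PSMD2, a base subunit, had 96 counts in liver and 426 in muscle (4.41-fold, 3.53 to 5.57).

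Hormones, iron genes and carriers completed the pathway lists. Secreted hepatic hormones and growth factors had 11 of 13 higher in liver and 0 in muscle, such as AGT, angiotensinogen, with 296 counts in liver and 2 in muscle (149-fold, 40.8 to 1234). Among myokines MSTN, myostatin, a brake on muscle growth, had 0 counts in liver and 16 in muscle (at least 5.31-fold), and FST, its antagonist follistatin, was higher in liver with 59 counts in liver and 12 in muscle (4.94-fold, 2.63 to 10.1). Iron and heme genes had 9 of 16 higher in liver and 2 in muscle, of which TFRC, the transferrin receptor with 28 counts in liver and 92 in muscle, was lost with TMM. TFR2, its liver relative and an iron sensor, had 838 counts in liver and 0 in muscle (at least 281-fold). Glucose, lactate and amino acid carriers had 8 of 24 higher in liver and 7 in muscle. SLC38A4, an importer of neutral amino acids, had 876 counts in liver and 39 in muscle (22.6-fold, 16.4 to 32.0), and SLC1A3, a glutamate carrier, had 0 counts in liver and 38 in muscle (at least 12.6-fold). Only 9 of 27 ribosomal protein genes were measured, and RPL3L was the 1 called.

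Genes with intervals inside a 2-fold range in either direction numbered 477, or 555 with TMM and 542 with DESeq2. They held 8.34% of liver counts and 8.77% of muscle counts. A further 4309 genes were neither called nor within that range. Among 32 genes with at least 200 counts in each library, HDLBP, an RNA-binding protein, was nearest to equal, with 372 counts in liver and 375 in muscle, a ratio of 1.003 (0.867 to 1.16). APLP2, a relative of the amyloid precursor, followed with 228 counts in liver and 221 in muscle, and EPAS1, an oxygen-sensing factor, with 297 counts in liver and 320 in muscle. TMED2, MYH9 and GOT2 completed the 6, at muscle to liver ratios of 1.13, 1.13 and 1.22. With TMM all 6 lay on the liver side, from 1.12 for GOT2 to 1.41 for APLP2.

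Connective tissue genes lay on the muscle side as well. Extracellular matrix genes had 26 of 33 members higher in muscle and 2 in liver. COL1A1, a chain of the main fibrillar collagen, had 12 counts in liver and 2857 in muscle (237-fold, 135 to 459), and COL3A1 had 86 counts in liver and 3959 in muscle (45.8-fold, 37.0 to 57.4). THBS4, a matrix protein of tendon and muscle, had 0 counts in liver and 299 in muscle (at least 99.1-fold). Those higher in liver were FN1, fibronectin, which hepatocytes secrete into plasma, with 3594 counts in liver and 629 in muscle (5.74-fold, 5.28 to 6.26), and COL18A1, with 667 counts in liver and 56 in muscle (11.97-fold, 9.11 to 16.0). NID1, a basement membrane linker, had 57 counts in liver and 58 in muscle and was not called.

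Fibroblast markers, 8 of 8 with counts, summed to 430 CPM in liver, 31514 CPM in muscle, 37515 CPM in oWAT and 94901 CPM in sWAT, and 7 of 8 were higher in muscle. GSN, gelsolin, had 15 counts in liver and 4399 in muscle (292-fold, 177 to 522). PDGFRA, a receptor of fibroblast precursors, was the exception with 5 counts in liver and 6 in muscle. Adipocyte markers summed to 57.1 CPM in liver and 705 CPM in muscle, against 8649 CPM in oWAT and 9594 CPM in sWAT, and 4 of 5 measured members were higher in muscle. ADIPOQ, the fat hormone adiponectin, had 1 count in liver and 43 in muscle (42.8-fold, 7.28 to 1728), LEP had 1 muscle count and CIDEC 0 in both tissues. Endothelial markers had 3 of 6 higher in muscle, or 2 with TMM and 2 with DESeq2. Over all measured genes 16.79% were higher in muscle with library totals. Among the endothelial markers, PECAM1 had 44 counts in liver and 189 in muscle (4.27-fold, 3.06 to 6.08). Smooth muscle and pericyte markers had 3 of 5 higher in muscle, among them PDGFRB with 13 counts in liver and 131 in muscle, and 1 in liver, MYLK with 115 counts in liver and 29 in muscle. The part of connective tissue, fat and vessel cells in the muscle calls was not tested.

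Each library carried the defining markers of its labelled tissue. All 9 measured hepatocyte markers were higher in liver, summing to 178319 CPM in liver and 38.6 CPM in muscle, where TF had 16 counts, SERPINA1 had 1 and the other markers had 0. All 9 myofibre markers were higher in muscle, summing to 110653 CPM there and 128 CPM in liver, where 6 were at 0. Satellite cell markers summed to 77.7 CPM in liver and 54.6 CPM in muscle. Their 2 measured members went opposite ways, CDH15 with 0 counts in liver and 18 in muscle and APOC1, also a lipoprotein gene, with 33 counts in liver and 0 in muscle, and PAX7, their defining factor, had 5 muscle counts and 0 in liver. Markers of other liver cells summed to 265 CPM in liver for sinusoidal endothelium, 258 CPM for Kupffer cells and 226 CPM for stellate cells, beside 157, 81.8 and 555 CPM in muscle. STAB2, a scavenger receptor of liver sinusoids, had 54 counts in liver and 0 in muscle (at least 18.1-fold), and CD5L, of Kupffer cells, had 40 counts in liver and 0 in muscle (at least 13.4-fold). LYVE1, listed as a sinusoid marker and also found on lymphatic vessels, went the other way with 6 counts in liver and 47 in muscle (higher in muscle, 7.79-fold, 3.32 to 22.3). In the stellate cell list RGS5, also known from pericytes, did the same, with 12 counts in liver and 233 in muscle (19.3-fold, 10.8 to 37.9). RGS5 held 233 of the 244 muscle counts of that list, in which 3 of 5 measured members were higher in liver. Macrophage markers had a median log2 ratio of -0.36, which turned to 0.088 with TMM and 0.0525 with DESeq2, with 1 of 5 called, CD14, at 69 counts in liver and 18 in muscle. Cholangiocyte and T cell lists had 1 measured member each, and B cell, erythroid, Schwann cell and neutrophil lists had 0 measured members.

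**Figure D5:**
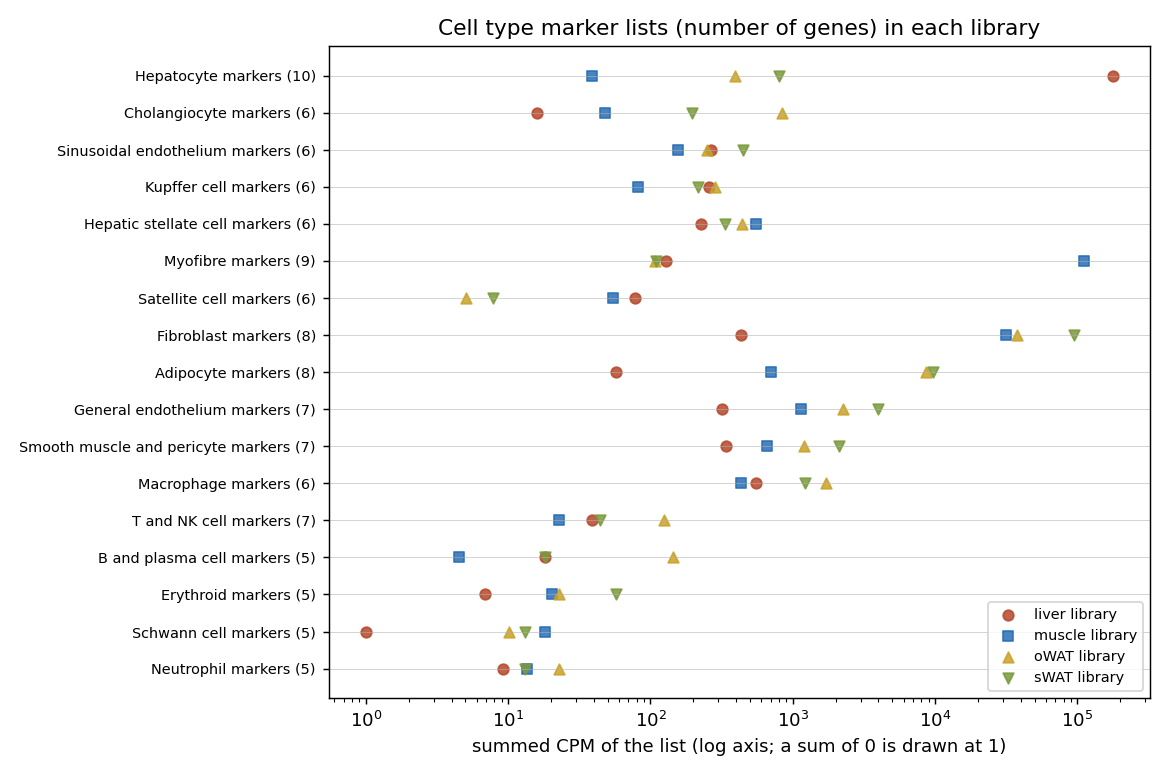
Summed CPM of each cell type marker list, on a log axis, in the liver, muscle, oWAT and sWAT libraries. Hepatocyte markers reach 178319 CPM in liver and myofibre markers 110653 CPM in muscle, while fibroblast and adipocyte markers are higher in muscle than in liver and highest in the adipose libraries.

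Some called genes lay beside each other on the chromosomes. Among protein-coding genes placed by the RefSeq table of assembly T2T-MFA8v1.1, 19.6% of 785 liver genes had a directly neighbouring gene that was also higher in liver. Of 5644 tested genes not called higher in liver, 7.51% had such a neighbour. For muscle the shares were 17.5% of 1258 genes and, among genes not called higher in muscle, 672 of 5171. Runs of at least 3 neighbours numbered 16 for liver and 12 for muscle. The liver runs included APOA5, APOA4, APOC3 and APOA1, the contact-pathway genes KLKB1 and F11 beside CYP4V2, the clotting genes F7, F10 and PROZ, and ITIH1, ITIH3 and ITIH4. Several are families of tandem copies, such as CYP3A5, CYP3A7, CYP3A4 and CYP3A43, where reads of 1 gene can be counted for its neighbour. Muscle runs included MYH8, MYH4 and MYH1, and a run of 6 genes from SYNPO2L and MYOZ1 to ANXA7. These shares are descriptions, since neighbouring genes are not independent.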

How the data were processed

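The files deposited by the authors hold whole-number counts per gene, not normalized, for 1 library per tissue, each pooled from 5 monkeys per the labels. Genes without an entry in 1 library were set to 0 there. Alignment used minimap2 2.24, per the submitters' processing notes. For build, annotation, strand use, filters and the assignment of reads, no tool or setting is stated in the sources used here. An entry that names no gene, 19.2% of all counts in the liver file and 14.3% in the muscle file, was left out of library totals, as the totals then describe named genes. Genes known only by an identifier numbered 1001 and held 7.12% of liver and 5.48% of muscle counts.

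Counts were scaled to the library total. The 95% interval of a fold is exact (Clopper-Pearson) and derives from the share that 1 library holds of a gene's counts in the pair. The reads carry no molecular identifiers here, so intervals and floors cover counting error only. Calls needed a lower bound above 2 and a minimum of 10 counts. No p-values were computed. List medians are of log2 ratios after adding 0.5 counts. Alternatives were edgeR 4.0.16 TMM factors and DESeq2 1.42.0 size factors (R 4.3.3), used for scaling alone, other totals, count minimums, bounds and interval levels, and thinning. The working of the calling rule was checked on simulated counts that held counting error alone. They held no spread between animals, so this check cannot show whether a call would repeat in other animals. Other steps used Python 3.11.15, NumPy 2.4.6, pandas 2.3.3, SciPy 1.17.1 and matplotlib 3.10.9.

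The comparison, the 61 gene lists and the 60 gene pairs were chosen with earlier results of these data known. Named genes were the 10 with most counts in each library, in each direction the 15 of largest lower bound, up to 4 per list and direction by lower bound, members of the gene pairs, and up to 6 genes with at least 200 counts in each library nearest to a fold of 1. Other genes are named as exceptions within a list or as examples, chosen after their values were seen. Of 12778 names, 11342 matched the RefSeq table of assembly T2T-MFA8v1.1, used for names and neighbours alone. Promoter and protein sequences were not used here, and neither promoter motifs nor protein identities were computed. Values of some other genes are left out of the text.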

Additional observations from a re-analysis of the deposited data

Results flagged for a closer look

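Counts that name no gene lay outside the comparison. The entry held 103719 counts in the liver file and 73484 counts in the muscle file, so it was larger in liver. What these counts come from was not tested.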

How the results depend on the processing

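Depth limits the comparison most for genes with few counts: a gene with 0 counts in 1 library needed about 10 in the other to be called, and 4309 genes were neither called nor within a 2-fold range. The number of genes higher in liver moved from 873 to 1436 with a lower bound above 1, to 541 with a bound above 4 and to 524 among genes with a count in both libraries. Genes higher in muscle moved from 1338 to 2792 with a bound above 1, 621 with a bound above 4, 767 with a wider interval of higher confidence and 845 after thinning to 200000 counts. The median log2 ratio over genes was -0.055 with TMM, -0.091 with DESeq2 and -0.39 without the 10 genes with most counts in either library. List medians changed sign for splicing regulators, to 0.14 with TMM and 0.10 with DESeq2, and for macrophage markers, to 0.088 and 0.0525. Of 286 genes named by the ranking rules or measured as members of the gene pairs, 0 had a call turned to the other tissue. With TMM 16 of them lost and 7 gained a call, against 15 and 7 with DESeq2. Genes named only as exceptions or examples were not part of this count. Some genes without a call, such as HDLBP, did move from the muscle side to the liver side with TMM. Pairs divided between the tissues numbered 13, and 18 with either factor. No paired analysis was possible because each tissue has 1 library. Protein identity within pairs and promoter motifs were not run.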

Other observations

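Many called genes belonged to none of the lists: 518 named genes higher in liver and 1015 higher in muscle. The genes in this section were picked after their values were seen. In liver they were led by AOC1, a diamine oxidase, with 1810 counts and 0 in muscle. The pentraxins APCS and CRP, which bind damaged cells and microbes, had 963 and 599 counts in liver and 0 in muscle, at least 323-fold and 201-fold higher. HSD17B13, a lipid droplet enzyme, had 371 liver counts, and AQP9, a glycerol channel, had 260, each with 0 in muscle. XDH, which makes urate, had 192 against 0. CHI3L1, a secreted glycoprotein, had 506 liver counts and 2 in muscle (254-fold, 70.0 to 2106).

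In muscle they were led by MMP2, a matrix-degrading protease, with 1265 counts and 2 in liver (629-fold, 174 to 5201). It also had 732 counts in oWAT and 1283 in sWAT, so it was not particular to muscle. MSS51, a muscle gene linked to mitochondria, had 430 muscle counts, 0 in liver, 2 in oWAT and 1 in sWAT. PADI2, which converts arginine residues to citrulline, had 797 muscle counts against 2 in liver (396-fold, 109 to 3279), with 7 in oWAT and 6 in sWAT. SLC2A5, the fructose carrier GLUT5, had 166 muscle counts and 0 in liver.

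Families gathered by name were uneven. Over all 7967 measured genes 10.96% were higher in liver and 16.79% in muscle. Of 34 measured CYP genes 31 were higher in liver and 1 in muscle, with 33 and 0 under TMM. ASB genes, adaptors of ubiquitin ligases, had 9 of 14 higher in muscle and 1 in liver, and KLHL and KBTBD genes 9 of 22 and 0. Solute carriers had 48 of 172 higher in liver, above the share of all genes, and 29 in muscle, near it. Zinc finger ZNF genes had 0 of 148 higher in liver and 9 in muscle, or 1 and 6 with TMM, below the share of all genes in both directions. Of 326 ZNF genes with counts only these 148 were measured, and genes with few counts can seldom be called. The part of low counts in that share was not tested. Only 2 HOX genes were measured, HOXA10 with 15 muscle counts and HOXC10 with 14, and both had 0 in liver. The estrogen receptor ESR1 had 100 liver counts and 7 in muscle, and RXRG, a retinoid receptor, had 24 in muscle and 0 in liver.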
